A study of Homo sapiens with 2 samples.

Results

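In the expression table of this study, 491 of 28658 rows carry more than 1 gene symbol. They were chosen by a comma in the gene name, and the row with IGF2 was left out. Such a row arises where annotated genes overlap or share exons, so that the reads over them were summed into 1 value. The libraries came from an established human hepatoma line, PLC/PRF/5, kept under hypoxia. 1 library was made from cells with an empty vector (EV) and 1 from cells overexpressing NFX1 (NFX1_OE), a zinc-finger transcription factor; the labels give neither the oxygen level, the duration nor the kind of expression construct. With 1 library per group there is no replicate check and no test, so every difference below is between these 2 libraries.

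The 491 loci were sorted by their symbols into 6 kinds. A small RNA host, of which there were 43, holds a microRNA or small nucleolar RNA beside a longer gene. Another 15 held small RNAs only. Read-through loci numbered 97 and list a joined symbol such as RPS10-NUDT3 beside at least 1 of its parts. Antisense or intronic partners numbered 12, clusters of related genes 109, and other overlapping genes 215. Most loci held 2 symbols (356) or 3 symbols (122), and 13 held 4 or more, up to the 22 protocadherin gamma genes.

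Small nucleolar RNAs guide chemical modification of ribosomal RNA, and in human cells most are cut from introns of a host transcript. MicroRNAs are excised as hairpins from longer primary transcripts, and their seed, bases 2 to 8, sets most of their target pairing. A sequencing library of long RNA therefore reports the host or primary transcript and says little about the mature small RNA. Read-through transcripts run from an upstream gene into its neighbour and join their exons. In the protocadherin and UGT1A clusters, alternative first exons are spliced to shared last exons.

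Of 59 microRNA symbols in these loci, 57 matched the RefSeq sequence table (GRCh38.p14). The mature strands below belong to the loci whose values are described further on, shown because loci with several hairpins may hold one seed or several. They are written 5′ to 3′ with the seed in capitals. First come the 2 strands of the LINC-PINT locus, which share a seed.
hsa-miR-29a-3p: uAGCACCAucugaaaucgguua
hsa-miR-29b-3p: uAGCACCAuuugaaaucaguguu

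The MIR17HG locus holds 6 hairpins with 4 seeds among the strands shown. The seed of miR-17-5p is that of miR-20a-5p, and miR-19a-3p and miR-19b-3p share another.
hsa-miR-17-5p: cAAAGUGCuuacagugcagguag
hsa-miR-20a-5p: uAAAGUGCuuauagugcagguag
hsa-miR-18a-5p: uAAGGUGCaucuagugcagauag
hsa-miR-19a-3p: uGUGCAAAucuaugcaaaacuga
hsa-miR-19b-3p: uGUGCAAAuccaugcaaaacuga
hsa-miR-92a-3p: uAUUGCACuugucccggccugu

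The let-7 seed occurs in 2 separate loci, MIRLET7BHG and MIR4458HG.
hsa-let-7a-5p: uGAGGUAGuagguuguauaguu
hsa-let-7b-5p: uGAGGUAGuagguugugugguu
hsa-miR-4458: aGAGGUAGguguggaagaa

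The remaining strands each stand alone among the loci described, and come from MIR210HG, MIR22HG, H19 and the MIR192 and MIR194-2 pair.
hsa-miR-210-3p: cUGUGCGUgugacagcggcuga
hsa-miR-22-3p: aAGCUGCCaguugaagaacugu
hsa-miR-675-5p: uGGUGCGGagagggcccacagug
hsa-miR-192-5p: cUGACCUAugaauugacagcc
hsa-miR-194-5p: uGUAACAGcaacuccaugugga

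The values are FPKM, fragment numbers scaled by transcript length and library size. Wherever a pair of values follows, the vector library comes first and the NFX1 library second. NFX1 itself stood at 4.21 and 56.0 FPKM, a ratio of 13.3. The 10 hepatocyte and hepatoma markers had sums of 7007 and 7941 FPKM, most of it from SERPINA1 (5935 and 6807 FPKM). Low among them were ALB (0.776 and 1.06 FPKM), TTR (1.38 and 1.96 FPKM) and FGB (1.70 and 1.64 FPKM). All 10 reached 1 FPKM in a library, ALB only in the NFX1 library, and none of the 6 fibroblast or 4 endothelial markers did. Of 6 blood cell markers 4 did, with sums of 111 and 120 FPKM, among them LYZ (49.2 and 47.9 FPKM), CD68 (48.9 and 52.6 FPKM) and HBA1 (8.72 and 13.1 FPKM), while PTPRC, the common leukocyte antigen, was at 0. Their part in the results was not tested. By the steps between low values of olfactory receptor genes, 1 fragment on a transcript of 1 kb was worth about 0.0381 and 0.0335 FPKM. If library size alone set this scale, the NFX1 library was 1.14 times as deep. Fragment numbers estimated from this worth and GENCODE transcript lengths give the 95% exact counting intervals of a fold quoted below. They cover counting error only, and not differences between cultures.

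Loci with several symbols reached the limit of expression more often than single genes. A sum over several genes passes a fixed limit more readily than 1 gene, and how far this sets the difference was not tested. FPKM of at least 1 in a library was reached by 263 of the 491, or 53.6%, against 42.3% of the 26515 rows with 1 symbol. A further 57 lay between 0 and 1 FPKM and 171 were listed at 0 in both libraries. The loci just under the limit were CBWD3 with CBWD5 (0.911 and 0.616 FPKM) and PWAR5 with PWARSN (0.933 and 0.687 FPKM). Just above it were LY75 with CD302 (0.931 and 1.06 FPKM) and CCT6P1 with SNORA22 (1.04 and 1.06 FPKM).

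The loci at 0 include copies of the genome itself. All 74 loci on alternative haplotypes or unplaced contigs were listed at 0, and 65 of these are copies of the major histocompatibility complex region on chromosome 6. For some of these copies, but not all, the matching locus on the primary chromosome 6 was expressed. TAPBP with ZBTB22, which hold the peptide-loading factor tapasin and a zinc-finger gene, had 76.0 and 85.8 FPKM, while its 4 copies were at 0. DDX39B with ATP6V1G2 had 128 and 143 FPKM, and its 6 copies were at 0. The complement genes C4A and C4B_2 were low on the primary chromosome too, at 0.0491 and 0.0379 FPKM. On the primary chromosomes 63.1% of 417 loci passed 1 FPKM.

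Expressed loci with several symbols were more abundant than single genes. Their median over both libraries was 14.7 FPKM, against 10.2 FPKM for rows with 1 symbol, and 18.3% of them reached 100 FPKM, against 9.38%. Read-through loci had a median of 25.7 FPKM and other overlapping genes 17.6 FPKM, while small RNA hosts had 5.00 FPKM and related-gene clusters 2.26 FPKM. That last value depends on the sorting, which puts related genes with a joined symbol among the read-through loci. With those counted in as well, the clusters had 79 expressed loci and a median of 14.3 FPKM. An FPKM summed over several genes is a sum of their levels, and the share of each gene in it was not resolved here.

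**Figure D1:**
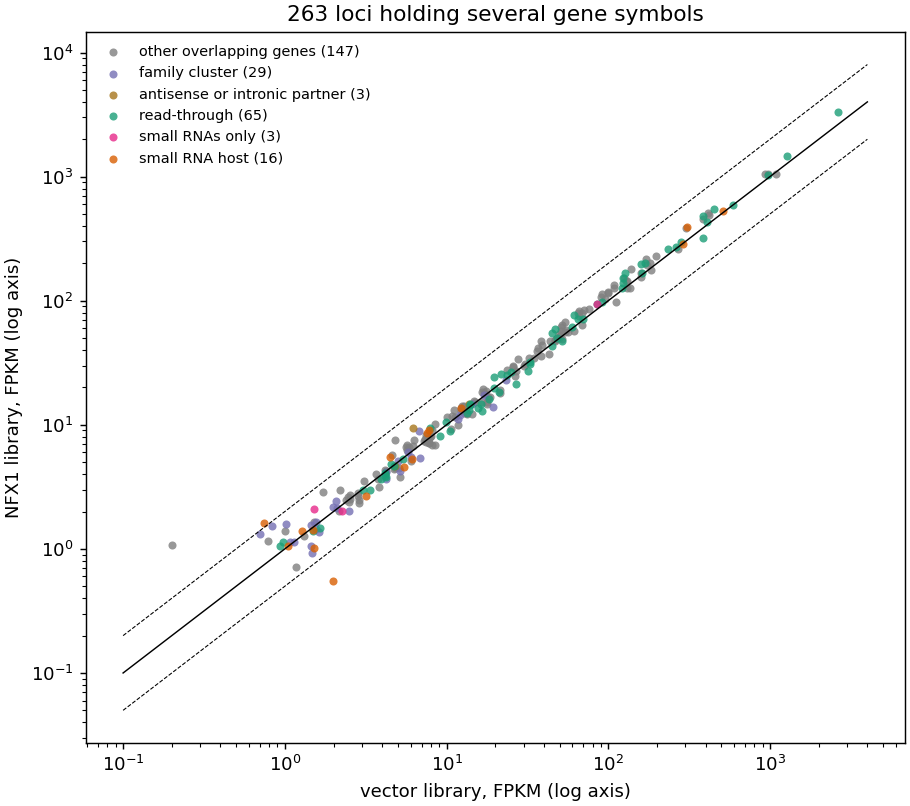
FPKM of each locus with at least 1 FPKM in a library, vector library on the horizontal and NFX1 library on the vertical log axis, coloured by kind (number of loci in brackets). The solid line marks equal values and the dashed lines 2-fold differences; the CT45A cluster and SNHG22 lie above the upper dashed line and LINC-PINT with MIR29A and MIR29B1 below the lower one, all at low FPKM.

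Differences between the libraries were small. The change of a locus is log2((NFX1 FPKM + 1)/(vector FPKM + 1)), a scale that understates the change of low values. None of the 263 loci was 2-fold higher or 2-fold lower on this scale, where 0.368% and 0.226% of all 11943 expressed rows were. At 1.5-fold there was 1 higher locus, the CT45A cluster, and 1 lower locus, LINC-PINT with MIR29A and MIR29B1, against 0.98% and 0.661% of all rows. Within 1.25-fold lay 239 of the 263 loci, or 90.9%, against 91.5% of rows with 1 symbol.

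Higher values in the NFX1 library outnumbered lower ones. The median change was 0.04 over the 263 loci and 0.01 over 11211 rows with 1 symbol. Higher values were found for 162 loci and lower values for 101, so that 61.6% were higher, against 52.4% of all expressed rows. Base composition moved with this share. Transcripts of the loci had a median GC content of 53.8%, those of single genes 50.6%, and in these libraries the change followed GC content. After removal of that trend, for the 258 loci with a GENCODE transcript, the median was 0.01 and 52.7% were higher, against 50.6% of rows with 1 symbol.

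The expressed genes were split into 5 bins of GC content, and in both groups the share of higher values grew from bin to bin. In the bin with the lowest GC, 2 of 30 loci were higher (6.67%), against 18.2% of single genes, with medians of -0.11 and -0.11. In the bin with the highest GC, 55 of 61 loci were higher (90.2%), against 89.2%, with medians of 0.17 and 0.20. From the second bin to the fourth, the loci went from 34.8% to 78.3% higher and single genes from 22.2% to 79.7%. In the middle bin the loci stood at 67.3% higher and single genes at 51.3%. Of 4 bins of abundance, the highest had 79.8% of 94 loci higher, against 74.3% of single genes. The next had 52.5% of 61 loci, against 54.9%, then 48.3% of 58 loci, against 41.0%, and the lowest had 54.0% of 50 loci, against 38.2%.

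**Figure D2:**
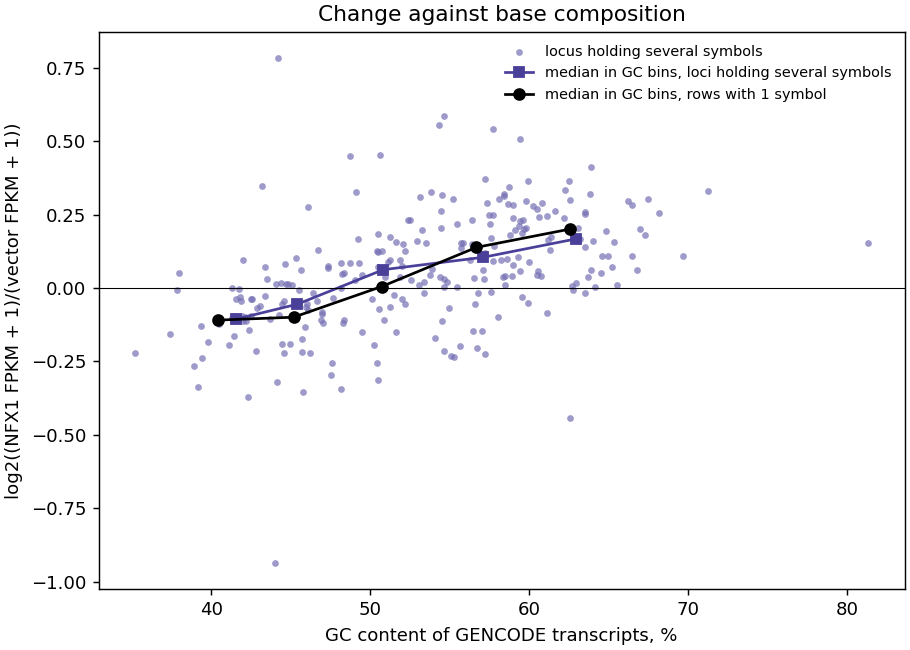
Change of each locus (points) against the median GC content of its GENCODE transcripts in percent. Squares join the medians of the loci and circles those of single-symbol rows in 5 bins of GC content, placed at the median GC of each group; both run from -0.11 in the lowest bin to 0.17 (loci) and 0.20 (single symbols) in the highest.

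How much of this remained is given here by kind of locus. Other overlapping genes had a median of 0.07 with 98 of 147 higher, and 0.0093 with 74 of 144 higher once the GC trend was removed. Read-through loci had a median of 0.04 with 36 of 65 higher and then 0.06 with 41 of 65 higher, at a median GC content of 48.7%. Clusters of related genes had a median of 0.0020 with 15 of 29 higher, then -0.07 with 10 of 28 higher. With related read-through genes counted in, their median was 0.03 with 44 of 79 higher, and 0.03 with 43 of 78 higher once the trend was removed, so the direction depends on the sorting. Small RNA hosts had 0.03 with 9 of 16 higher, then 0.05 with 8 of 15 higher.

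**Figure D3:**
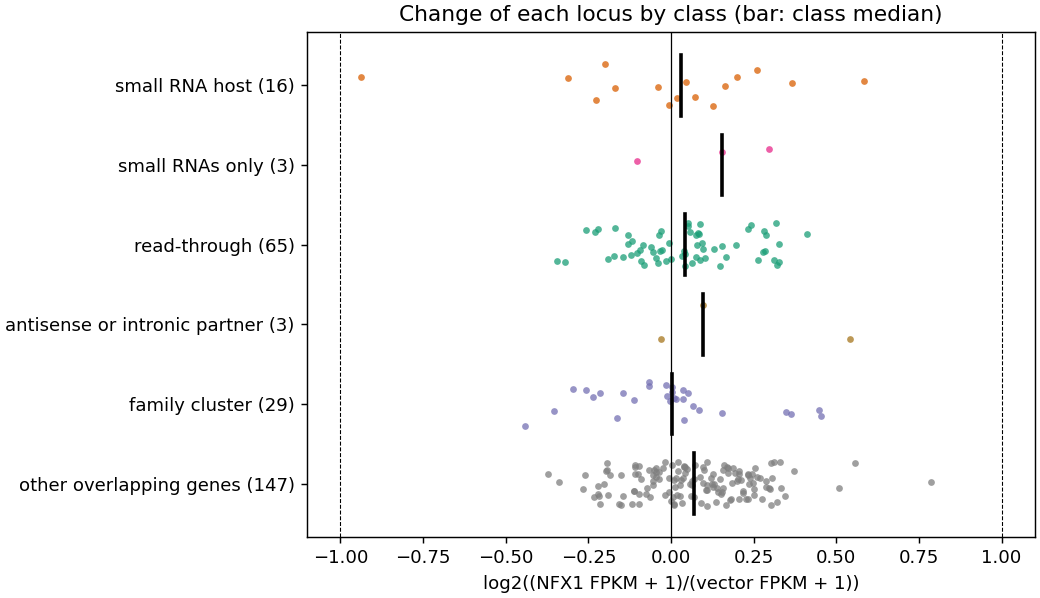
Change of each expressed locus, in log2 units, by kind of locus (number in brackets), with vertical bars at the medians of each kind and dashed lines at 2-fold. The lowest point is LINC-PINT with MIR29A and MIR29B1 at -0.94 and the highest is the CT45A cluster at 0.79.

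Among the small RNA hosts, the medians of those with small nucleolar or Cajal body RNAs and of those with microRNAs lay on different sides of 0, each from few loci. All 6 snoRNA or scaRNA hosts were expressed and all 6 were higher in the NFX1 library, with a median change of 0.10, and 0.12 after removal of the GC trend. Of 37 microRNA hosts 10 were expressed, of which 3 were higher and 7 lower, with a median of -0.10, and -0.21 after removal of the trend. Of all expressed rows, 52.4% were higher. The exact 95% intervals of the share higher, 54.1% to 100% and 6.67% to 65.2%, overlap. One of the lower microRNA hosts, H19, had a change of only -0.0052. Genes on the microRNA host list with a row of their own, described below, were 13 higher and 8 lower. The difference between these groups was not tested.

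LRRC75A-AS1, a long noncoding RNA that hosts SNORD49B, was the most abundant of them at 515 and 532 FPKM. Its fold was 1.03, with a counting interval of 1.01 to 1.06. SNHG7, the host of SNORA17 and SNORA43 (chr9:139607024-139622636, hg19), had 307 and 395 FPKM. The fold was 1.29 (counting interval 1.26 to 1.32). The change was 0.37, or 0.20 with the GC trend taken out.

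SNHG12, the host of SNORA61, had 12.3 and 13.6 FPKM, and its counting interval, 0.951 to 1.26, covers 1. SNHG22, listed with the Cajal body RNA SCARNA17 on chromosome 18, had 0.741 and 1.61 FPKM, about 13 and 32 fragments. Its fold was 2.17 (counting interval 1.11 to 4.49) and its change 0.58. The pseudogene hosts RPL32P3 (1.28 and 1.40 FPKM) and CCT6P1 (1.04 and 1.06 FPKM) differed by less than counting error.

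Hosts of small nucleolar RNAs that have a row of their own were mostly higher too. Of 22 such genes, taken from a list of SNHG genes and other known hosts, 19 were expressed, 16 higher and 3 lower. Their median change was 0.18, and 0.23 after removal of the GC trend. Of all expressed rows 52.4% were higher. In the highest bin of abundance, which holds SNHG15 and DANCR, 74.3% of single genes were. Whether these hosts differ from genes of like abundance was not tested. SNHG15 had 36.5 and 48.7 FPKM and DANCR 189 and 241 FPKM. Lower values were found for GAS5 (52.9 and 46.4 FPKM), TAF1D (10.9 and 8.45 FPKM) and, by a change of -0.0050, the nucleolar protein gene NCL (164 and 163 FPKM).

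**Figure D4:**
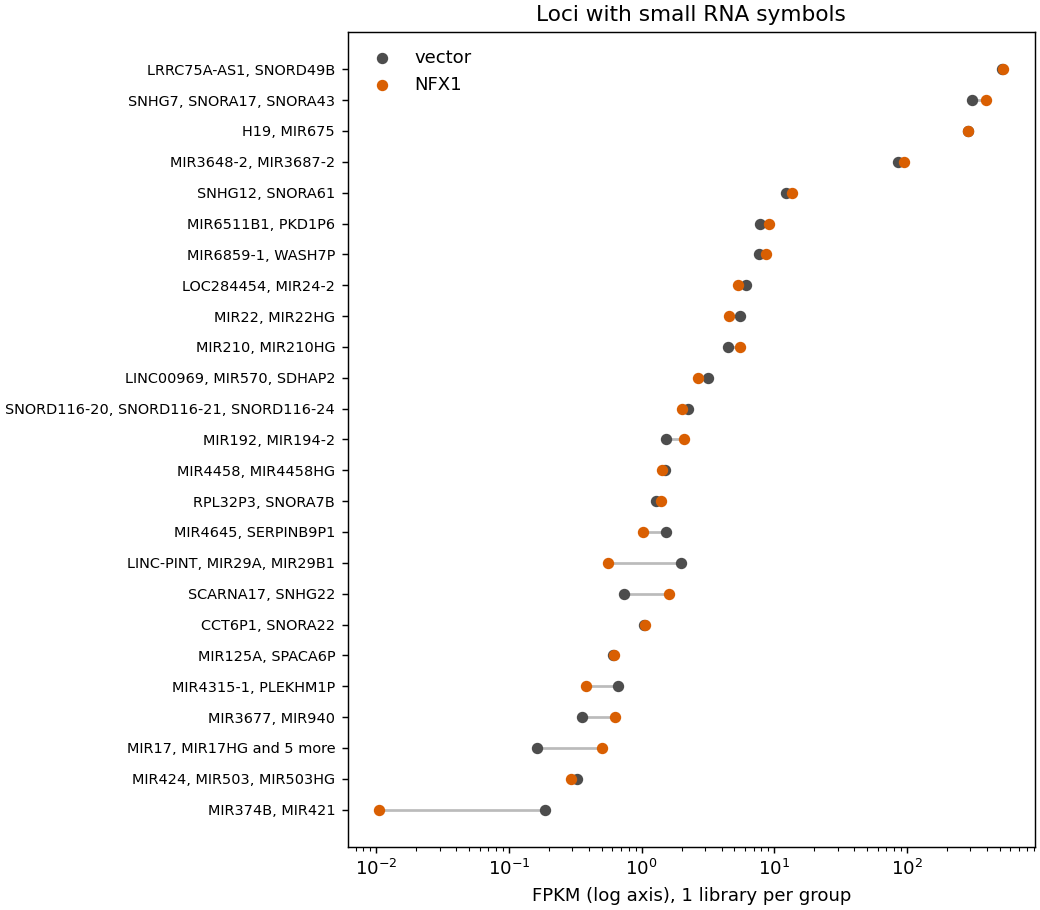
FPKM on a log axis in the vector library (dark) and the NFX1 library (orange) for each locus with a small RNA symbol and more than 0.1 FPKM in a library. The widest gaps lie at low values: LINC-PINT with MIR29A and MIR29B1 at 1.98 and 0.554 FPKM, the MIR17HG locus at 0.162 and 0.505 FPKM, and MIR374B with MIR421 at 0.187 and 0.0105 FPKM.

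The lowest change of all 263 loci was that of LINC-PINT with MIR29A and MIR29B1 (chr7:130560886-130598069, hg19), whose miR-29 strands share the seed shown above. LINC-PINT is a long noncoding RNA transcribed upstream of this microRNA pair. The locus stood at 1.98 and 0.554 FPKM, a fold of 0.280. Its change was -0.94, or -0.84 with the GC trend taken out. With a transcript length of 1002 bp these values equal about 52 and 17 fragments (counting interval 0.156 to 0.505). With the length of the shorter hairpin, 64 bases, they would be 3 and 1 fragments and an interval of 0.0056 to 3.65, which covers 1. Which transcript carried the reads was not resolved here. In the authors' deposited table the locus had p = 0.02835 and q = 0.999.

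MIR17HG, the primary transcript of the miR-17-92 cluster, stayed below 1 FPKM at 0.162 and 0.505 FPKM. At the length of the host transcript, 2032 bp, these equal about 9 and 31 fragments, and the fold was 3.12 (counting interval 1.41 to 7.23). At the length of the shortest hairpin, 71 bases, they would be 0 and 1 fragments, too few for any difference to be detectable. The listed interval spans 7113 bp, and the authors' deposited table gave this locus p = 0.2449 and q = 0.999. Which length applies was not tested. MIR210HG, the host of a hypoxia-induced microRNA (chr11:565657-568457, hg19), had 4.46 and 5.53 FPKM. Its counting interval of 0.939 to 1.66 covers 1, and the change of 0.26 became 0.05 with the GC trend taken out.

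MIR22HG (chr17:1614798-1619566, hg19), the host of miR-22, had 5.47 and 4.53 FPKM (counting interval 0.601 to 1.14). SERPINB9P1 with MIR4645 had 1.51 and 1.02 FPKM, a change of -0.31 (interval of the fold 0.424 to 1.06). LINC00969 with SDHAP2 and MIR570 had 3.19 and 2.65 FPKM, and LOC284454 with MIR24-2 6.10 and 5.31 FPKM. None of these differences exceeded counting error where it could be estimated. For LOC284454, which has no GENCODE length, it was estimated with the hairpin length alone.

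H19, an imprinted noncoding RNA that is the precursor of miR-675, was the most abundant microRNA host and hardly differed. It stood at 290 and 289 FPKM, a fold of 0.996 (interval 0.965 to 1.03). H19 has a GC content of 62.7%, in the bin where most single genes were higher, and with the GC trend taken out its change was -0.21. The pseudogenes PKD1P6 with MIR6511B1 (7.77 and 9.07 FPKM) and WASH7P with MIR6859-1 (7.62 and 8.66 FPKM) have near-identical copies elsewhere, so their values are uncertain.

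Other primary transcripts were near the floor. MIR4458HG, the locus of the let-7-seeded miR-4458, had 1.49 and 1.43 FPKM, and the other locus with that seed, MIRLET7BHG, had 0.0123 and 0.0166 FPKM. MIR155HG (0.0228 FPKM) and MEG3 with MIR770 (0.0454 FPKM) had a value in the vector library and were listed at 0 in the other. MIR503HG with MIR424 and MIR503 had 0.325 and 0.296 FPKM, about 6 fragments each.

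Most microRNA hosts on the list, which also holds the processing genes DROSHA and DGCR8, had a row of their own. Of its 27 genes, 21 had such a row and all 21 were expressed, 13 higher and 8 lower. Their median change was 0.11, and 0.06 after removal of the trend. Beside this, 52.4% of all expressed rows were higher. So were 74.3% of single genes in the highest bin of abundance, which holds MCM7 and SREBF1. The count therefore shows no trait of microRNA hosts. MCM7, the host of miR-106b, miR-93 and miR-25, had 56.9 and 73.6 FPKM, and SREBF1, the host of miR-33b, 48.0 and 63.7 FPKM. PANK3, the host of a miR-103a hairpin, had 9.79 and 7.77 FPKM. The other 6 are in loci with several symbols, of which H19, MIR22HG and MIR210HG passed 1 FPKM.

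Of the 15 loci with small RNAs only, 10 were listed at 0 and 3 passed 1 FPKM. MIR3648-2 with MIR3687-2 had 85.0 and 94.7 FPKM. SNORD116-20, SNORD116-21 and SNORD116-24, imprinted snoRNAs downstream of SNRPN, had 2.25 and 2.03 FPKM. MIR192 with MIR194-2, microRNAs of liver and gut epithelium, had 1.52 and 2.096 FPKM. Below the limit lay MIR3677 with MIR940 (0.354 and 0.625 FPKM) and MIR374B with MIR421 (0.187 and 0.0105 FPKM). At hairpin length the MIR192 pair would rest on about 3 and 5 fragments, too few for a difference to be detectable. Its listed interval spans 4921 bp, and the authors' deposited table gave p = 0.3387 and q = 0.999. Which transcript carried the reads was not resolved, neither here nor for the MIR3648-2 locus, whose listed interval spans 14484 bp.

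Read-through loci held the most abundant genes. NUDT3 with RPS10, a protein of the small ribosomal subunit (chr6:34254973-34393902, hg19), stood at 2640 and 3315 FPKM. The fold was 1.26 (counting interval 1.247 to 1.26), and the change was 0.33, or 0.35 with the GC trend taken out. The nucleoside diphosphate kinases NME1 and NME2 had 1283 and 1470 FPKM, and FXYD2 with FXYD6, regulators of the sodium pump, 978 and 1033 FPKM. RPL17 with C18orf32 had 593 and 593 FPKM, a fold of 0.999 (interval 0.978 to 1.02). ATP5J2 with PTCD1, an ATP synthase subunit and a mitochondrial RNA-binding protein, had 452 and 548 FPKM.

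The greatest increases among read-through loci were of similar size. CORO7 with PAM16, an actin regulator and a subunit of the mitochondrial import motor, had 126 and 169 FPKM, a fold of 1.33 (interval 1.26 to 1.41). Its transcripts have a GC content of 63.9%, and its change of 0.41 became 0.20 with the trend taken out. RPP21 with TRIM39, an RNase P subunit and a ubiquitin ligase, had 158 and 199 FPKM, and PMF1 with BGLAP 61.0 and 76.4 FPKM. MRPS24 with URGCP had 387 and 482 FPKM. With the GC trend taken out, the change was 0.27 for the TRIM39 locus, 0.18 for PMF1 and 0.24 for MRPS24.

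The greatest decreases were as small. RDH14 with NT5C1B, a retinol dehydrogenase and a nucleotidase, had 16.5 and 12.8 FPKM, a fold of 0.775 (interval 0.697 to 0.860). MSANTD3 with TMEFF1 had 26.9 and 21.4 FPKM (interval 0.735 to 0.854). SAA2 with SAA4, genes of the serum amyloid A family, had 384 and 321 FPKM, a fold of 0.836 (interval 0.809 to 0.864). The change of this locus, -0.26, stayed at -0.25 with the trend taken out. The cancer-testis genes MAGEA10 and MAGEA5 had 10.6 and 8.86 FPKM, and the interval, 0.695 to 1.01, covers 1.

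**Figure D5:**
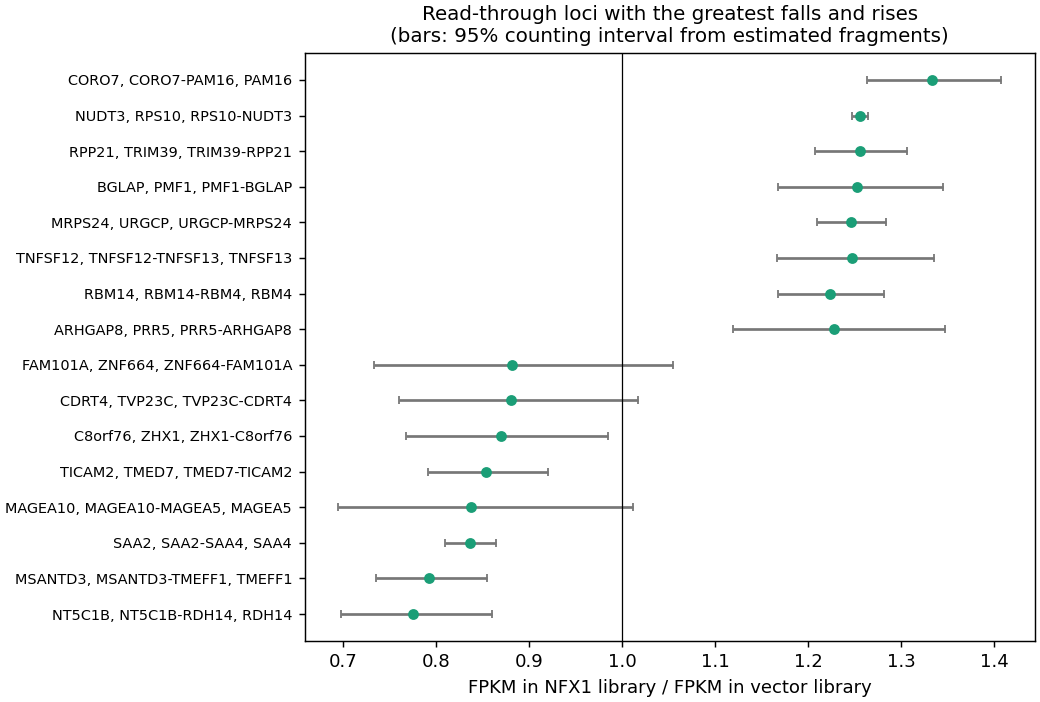
Fold of FPKM, NFX1 library over vector library, for the 8 read-through loci with the lowest and the 8 with the highest changes. Bars are 95% counting intervals from estimated fragments and do not cover differences between cultures; folds run from 0.775 (NT5C1B with RDH14) to 1.33 (CORO7 with PAM16).

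Several of these loci hold translation genes, whose messages often begin with a run of pyrimidines, the 5′ terminal oligopyrimidine tract. A run of at least 5 C or T bases that begins with C at the annotated start was found at 4.07% of 35116 RefSeq start sites (GRCh38.p14). It was found in 26 of the 224 expressed loci with a start site in the table, or 11.6%, where each locus has several chances, and in 7.46% of single genes. The windows below, 10 bases before and 20 from the start, show it in capitals for 2 read-through ribosomal protein genes and a snoRNA host, chosen with their values known.
RPS10: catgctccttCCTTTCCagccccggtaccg
RPL36A: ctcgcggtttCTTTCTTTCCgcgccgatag
SNHG12: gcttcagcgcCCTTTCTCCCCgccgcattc

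Loci with the run had a median change of 0.08, with 18 higher and 8 lower, and loci without it 0.05, with 123 higher and 75 lower. For single genes the medians were 0.04 over 631 with the run and 0.0085 over 7831 without it. Of these, 357 and 4043 were higher, and of all expressed rows 52.4%. Differences between genes with and without the run were not tested. With the GC trend taken out, the medians were 0.04 and 0.01 for the loci and 0.02 and 0.0026 for single genes. RPL36A with HNRNPH2, an RNA-binding protein, had 405 and 429 FPKM, a change of 0.08 beside 0.33 for the RPS10 locus and 0.13 for SNHG12. Of 7 loci with a ribosomal protein or translation factor gene, 6 were expressed, 3 higher and 3 lower, with a median of 0.04, and 0.14 after removal of the GC trend. These 7 were gathered after their values were seen.

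Of the 109 clusters of related genes without a joined symbol, 65 were listed at 0 and 29 were expressed. The histone pair HIST1H2AD and HIST1H3D had the lowest change among them at -0.44. It stood at 19.4 and 14.03 FPKM, a fold of 0.723 (counting interval 0.584 to 0.888), and the change was -0.64 with the GC trend taken out. The other histone pair, HIST1H2AI and HIST1H3H, had 14.4 and 14.8 FPKM. Messages of most such genes end in a stem-loop without a poly(A) tail, and how RNA was selected for the libraries is not given in the sources used here.

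Homeobox genes, which pattern the body axis, were close to equal in the libraries, and a pair of HOXC antisense RNAs was higher in the NFX1 library. HOXA9 with HOXA10 had 12.1 and 12.0 FPKM, HOXC4 with HOXC5 and HOXC6 11.8 and 11.2 FPKM, and HOXA5 with HOXA6 1.63 and 1.38 FPKM. HOXC-AS1 with HOXC-AS2, antisense RNAs of the HOXC cluster (chr12:54386640-54397120, hg19), had 6.17 and 9.43 FPKM. The fold was 1.53 (interval 1.24 to 1.90). The change was 0.54, or 0.41 with the GC trend taken out. Without a stated strand setting, reads of antisense RNAs and of the genes they overlap cannot be told apart. Of the other antisense loci, LIPE-AS1 had 13.8 and 14.8 FPKM and TSPEAR-AS1 with TSPEAR-AS2 4.81 and 4.69 FPKM.

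Neuroblastoma breakpoint family genes, near-identical copies on chromosome 1, were lower in both of their clusters. NBPF10 with 4 relatives had 6.85 and 5.39 FPKM and NBPF11 with 3 relatives 1.46 and 1.06 FPKM, and the intervals of the fold were 0.714 to 0.868 and 0.581 to 0.913. NBPF8, which belongs to both clusters, also has a row of its own, with 10.2 and 10.9 FPKM. Reads from such copies can be assigned to any of them, so these values are uncertain. The same holds for PMS2P5 with PMS2P7 (0.837 and 1.52 FPKM), which with PMS2P2 also form another locus (2.11 and 2.12 FPKM), and for FAM72C with FAM72D (1.02 and 1.57 FPKM); the row of FAM72C alone had 1.65 and 1.36 FPKM, the opposite direction.

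Zinc-finger and chemokine pairs went either way. ZNF324 with ZNF446 had 6.74 and 8.96 FPKM, ZNF20 with ZNF625 1.47 and 0.929 FPKM, and ZNF670 with ZNF695 17.1 and 17.3 FPKM. The chemokine genes CCL14 and CCL15 had 0.701 and 1.32 FPKM, about 15 and 31 fragments, and the interval of 0.952 to 3.62 covers 1. The kinase genes CDK11A and CDK11B had 23.2 and 23.0 FPKM, the highest mean of the clusters without a joined symbol.

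Clusters with shared last exons were low. The 22 protocadherin gamma genes had 1.45 and 1.56 FPKM together and the 15 protocadherin alpha genes 0.891 and 0.639 FPKM. The 9 UGT1A genes, a family of conjugating enzymes, had 0.0788 and 0.0444 FPKM. A wider list took loci by the first letters of chosen gene or family names, whether or not they share last exons. It caught the microRNA host SERPINB9P1 and the APOBEC3 genes, and held repeated rows of CYP21A1P with CYP21A2, all at 0. Of its 21 loci 11 were expressed, 5 higher and 6 lower, beside 52.4% higher of all expressed rows. The median was -0.02, and -0.07 after removal of the GC trend. The most abundant was SNRPN with SNURF, an imprinted pair read from 1 message, at 183 and 178 FPKM. APOC2 with APOC4 had 1.08 and 1.13 FPKM, and the cytidine deaminases APOBEC3A and APOBEC3B 5.82 and 6.001 FPKM.

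Other overlapping genes were the most numerous kind. SLMO2 with ATP5E, an ATP synthase subunit, had 1090 and 1055 FPKM. C17orf49 with RNASEK, an endoribonuclease, had 970 and 1055 FPKM, and SENP3 with EIF4A1, an RNA helicase of translation initiation, 928 and 1054 FPKM. The fold of the last was 1.14 (interval 1.11 to 1.16). PLSCR3 with TMEM256 had 414 and 505 FPKM, and HYPK with SERF2 420 and 493 FPKM.

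The highest change of all 263 loci was that of the CT45A cluster of cancer-testis genes on the X chromosome, which falls in this kind because its stem has few letters. It stood at 0.200 and 1.07 FPKM, a change of 0.79 and a fold of 5.34. About 5 and 30 fragments gave a counting interval of 2.03 to 17.4. CT45A4 and CT45A7 also have rows of their own, listed at 0 and 1.85 FPKM and at 0.250 and 1.96 FPKM. All 3 rows were higher in the NFX1 library, but these copies are near-identical and share reads, so they are not separate observations.

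POLR2J2 with UPK3BL, a polymerase subunit copy and a uroplakin-like gene, had 4.77 and 7.49 FPKM (interval 1.28 to 1.93). GPSM3 with NOTCH4, a G-protein regulator and a Notch receptor, had 1.73 and 2.88 FPKM (interval 1.30 to 2.14). NARR with RAB34, a GTPase of vesicle traffic, had 138 and 179 FPKM, and its change of 0.37 became 0.25 with the GC trend taken out. On the lower side were UTP14C with ALG11, a glycosyltransferase (5.18 and 3.78 FPKM), AMY2B with RNPC3 (1.17 and 0.714 FPKM), CCPG1 with DYX1C1 (17.7 and 14.6 FPKM) and FLJ42627 with LOC652276 (8.44 and 6.88 FPKM). The interval was 0.639 to 0.835 for the ALG11 locus and 0.335 to 1.07, covering 1, for AMY2B.

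Of the 491 loci, 292 were tested in the authors' deposited table and none was marked significant, where 0.12% of all 14994 tested rows were. A p-value under 0.05 in the authors' deposited table was given for 4 of the 292, against 1.45% of all tested rows. They were the CT45A cluster (p = 0.0156), POLR2J2 with UPK3BL (p = 0.02735), LINC-PINT with MIR29A and MIR29B1 (p = 0.02835) and GPSM3 with NOTCH4 (p = 0.045), all with q = 0.999 in the authors' deposited table. With no replicate libraries behind them, these p-values say nothing of variation among cultures.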

How the data were processed

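Per the submitters' processing notes, the authors used TopHat2 2.1.0, Cufflinks 2.2.1 and hg19; the annotation, settings, strand and scaling are not given in the sources used here. Per the file headers, the authors deposited 1 FPKM value per library and row. The log2 fold change, the test statistic (a score), the p-value and the q-value are also the authors' deposited values. Listed intervals span a bundle of overlapping transcripts, and 219 of the 491 loci share theirs with another row. Starts were converted to count from 1.

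Members, kinds and lists were chosen with earlier results of these data known. Named loci are, per kind, the 5 most abundant, the 4 greatest increases and 4 greatest decreases with FPKM of at least 1, and listed genes; others were named after their values were seen. The length and GC content of a locus are medians over the GENCODE transcripts of its symbols (98.1% of expressed loci matched). The GC trend was a cubic polynomial fitted on 10636 single-symbol rows within 2-fold. The worth of 1 fragment came from 9 and 10 olfactory receptor rows. Steps were tested on simulated data. Calculations used pandas 2.3.3 with numpy 2.4.6, intervals scipy 1.17.1 and plots matplotlib 3.10.9, under Python 3.11.15.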

Additional observations from a re-analysis of the deposited data

How the results depend on the processing

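No paired analysis was possible because each group has 1 library. With a pseudocount of 0.1, 2 loci were at least 2-fold higher and 1 was lower, in place of 0 and 0; with a limit of 1.5-fold the numbers were 1 and 1. Upper-quartile scaling shifts every change by -0.04 and brought the median of all loci from 0.04 to 0.013 and the share higher from 61.6% to 54.0%. Removal of the GC trend gave 0.011 and 52.7%, and brought the median of other overlapping genes from 0.07 to 0.0093. The median of single-symbol rows turned from 0.01 to -0.020 with upper-quartile scaling, -0.0021 when centred and -0.00079 with no filter. The median of related-gene clusters, 0.0020, turned to -0.021 with upper-quartile scaling, -0.012 when centred, -0.014 at a minimum of 5 FPKM, -0.011 with no filter and -0.07 without the GC trend. Of 77 alternative values for the loci and their kinds, 68 stayed within the interval of the reported value or within 1.5 times the count. These cluster medians were among the 68. Several of the 77 could not move, so this number overstates stability. All 263 loci remained when only rows the authors tested, or spans of at least 1000 bp, were kept. A pseudocount cannot change the share higher. The 30 expressed loci with the greatest changes kept their sign with a pseudocount of 0.1 or 5, upper-quartile scaling or centring. That outcome was fixed in advance and says nothing of stability. A pseudocount cannot turn a sign. The shift of -0.04 by scaling and the 0.014 subtracted by centring are far smaller than these changes. Leaving out a replicate was not possible with 1 library per group. Loci under 1 FPKM rest on few fragments, and the intervals depend on the transcript length assumed.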
